A study of Homo sapiens with 24 samples.

Results

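The genes described here are the plasminogen activators, their receptor, and matrix metalloproteases with their inhibitors, namely PLAU, PLAT, PLAUR, MMP1, MMP13, MMP14, TIMP1 and TIMP2. They were taken by name, using the probe sets that carry that single gene symbol, and all 8 were measured, by 16 of the 54613 probe sets and as 8 of 19775 named genes. The study hybridized RNA of 4 established prostate cancer lines to 24 Affymetrix arrays. PC3 comes from a bone metastasis and LNCaP from a lymph node metastasis, VCaP from a vertebral metastasis, and NCI-H660 is a neuroendocrine line. Each line was cultured for 24 hours with vehicle or with 0.5 or 10 µM I-BET762, an inhibitor of the BET bromodomain proteins that bind acetylated histones, and each condition had 2 biological replicates. Each line stands for 1 tumour, and no line carries an added transgene or deletion that the sources used here describe.

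Urokinase, encoded by PLAU, and tissue plasminogen activator, encoded by PLAT, cleave plasminogen to plasmin, a protease that dissolves fibrin and other matrix proteins. The urokinase receptor, encoded by PLAUR, holds urokinase at the cell surface. Plasmin can in turn activate secreted matrix metalloproteases, and the TIMP proteins inhibit these enzymes. High urokinase activity is a known feature of PC3 cells, and the whole system is studied in prostate cancer for its part in invasion.

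The values are MAS5 signals, a linear intensity that the authors scaled to the same target of 500 on each array. A mean signal of 100 served as the detection floor, and where a group's mean lay below it the fold was taken against 100 and is written "at least", being a lower bound. A gene was called where limma gave an adjusted p under 0.1, a fitted fold over 2 from the signals as measured, and a mean at or above the floor in either group. The fitted fold uses signals under the floor too, so a called gene can have a lower bound under 2. "Passed" means the same without the fold minimum. Probe sets differ in affinity, so levels are compared between samples and never between genes. In RNA from whole cultures, fewer cells that make a transcript and less of it per cell cannot be told apart.

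The labels of LNCaP and VCaP went against an identity check. ERG, which the TMPRSS2-ERG fusion drives in VCaP, had signals from 2866.8 to 7084.5 on the arrays labelled LNCaP and from 5.9 to 28.3 on those labelled VCaP. ETV1, which is rearranged in LNCaP, ran from 14.5 to 90.3 on the arrays labelled LNCaP and from 191.7 to 407.8 on those labelled VCaP. Both sets are therefore given by their labels only. Results in PC3 and NCI-H660 do not rest on those labels. The paper describes the same fusion, with high ERG expression, in NCI-H660 too. On the NCI-H660 arrays ERG ran from 65.5 to 142.7, above those labelled VCaP and far below those labelled LNCaP. Summed neuroendocrine markers ran from 11672 to 21048 on the NCI-H660 arrays and from 1055 to 4367 elsewhere. The cause of the low ERG signal on the NCI-H660 arrays was not tested. Summed basal and mesenchymal markers ran from 15138 to 26287 on PC3 arrays, where 3 of 4 were detected, and from 201 to 1579 elsewhere, where 1 or 2 were. The PC3 sum was mostly CAV1, with vehicle means of 17769 for CAV1, 6249.2 for CD44 and 1820.5 for VIM. KRT5, a basal keratin, was under the floor in every line. VIM averaged 1358.3 in NCI-H660 vehicle. Summed fibroblast markers ran from 548 to 767 in PC3 and from 219 to 1592 elsewhere, leukocyte markers from 114 to 265 and from 91 to 326, and endothelial markers from 245 to 696 and from 131 to 287. COL1A2, a fibroblast marker, averaged 1167.6 in vehicle, 271.4 at 0.5 µM and 193.6 at 10 µM in NCI-H660, and PECAM1, an endothelial marker, averaged 611.8, 310.5 and 244.1 in PC3 in the same order. COL1A1 averaged from 339.4 to 529.7 in PC3, and the fibroblast markers DCN, LUM and COL3A1 did not exceed a mean of 65.4 in any group, nor the endothelial markers VWF and CDH5 one of 77.1. The part of any of these in the results below was not tested.

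In vehicle, 7 of the 8 genes were higher in PC3 than in each of the other lines, the exception being MMP13. PLAU and TIMP1 stood furthest apart, at least 118-fold and at least 177-fold higher in PC3 than on the arrays labelled LNCaP. The share of all genes called higher in PC3 was 12.6% against the arrays labelled LNCaP, 11.5% against those labelled VCaP and 13.6% against NCI-H660. These 3 comparisons share the PC3 vehicle arrays. The 8 genes were chosen with earlier results of these data known, so the count of 7 describes them and is no test.

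**Figure D1:**
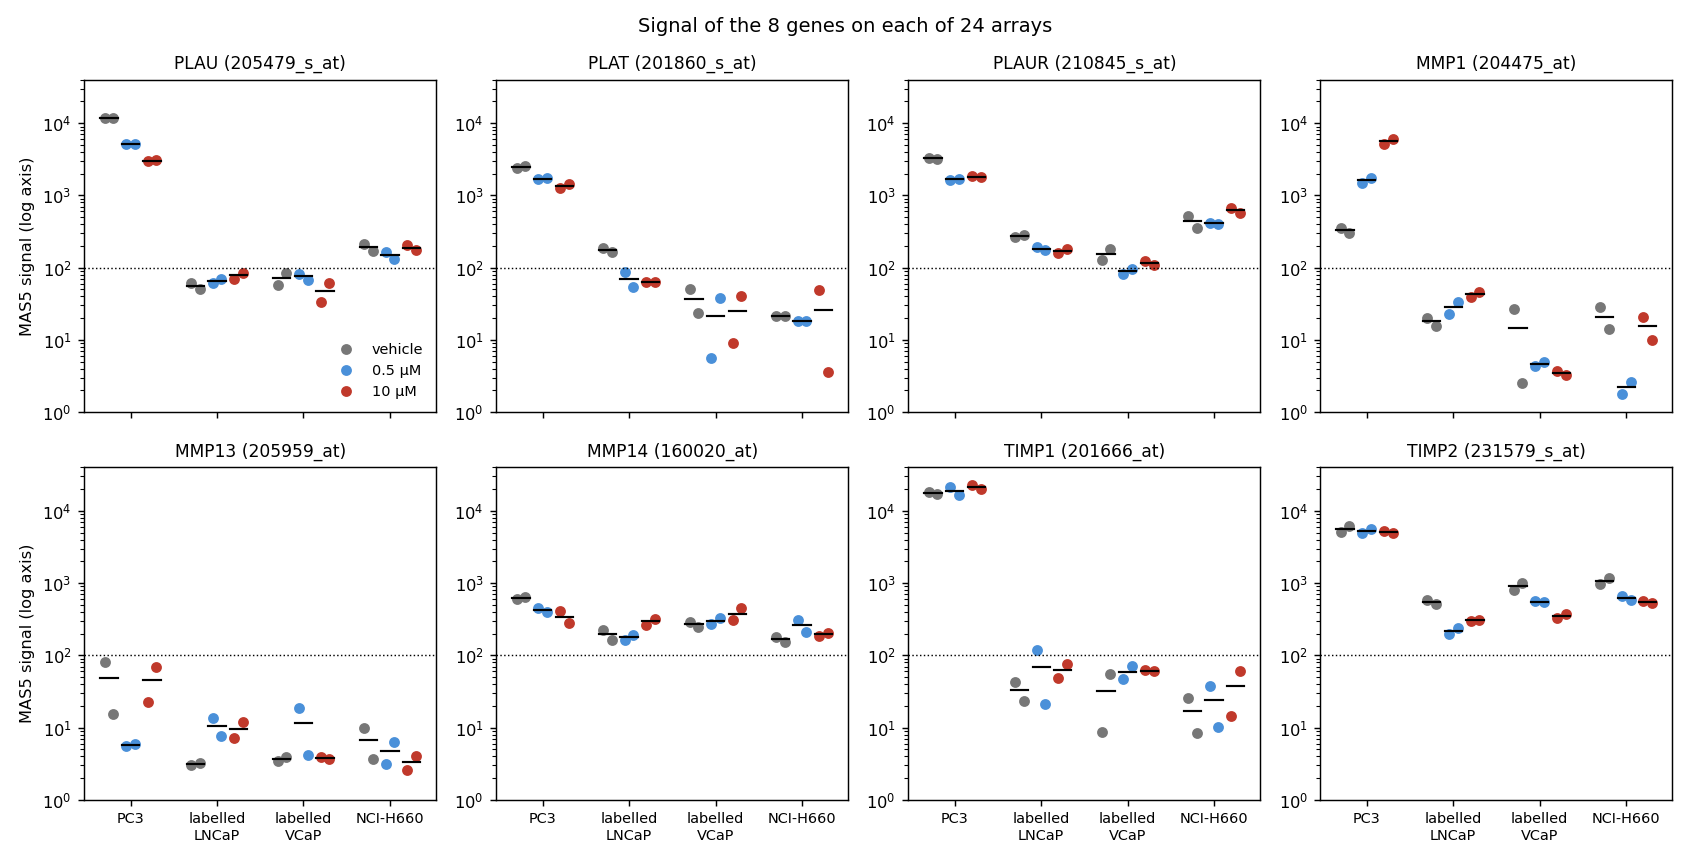
MAS5 signal (log axis) of each gene's representative probe set on every array, by cell line and dose; points are arrays, short bars group means, and the dotted line the detection floor of 100. PLAU fell and MMP1 rose in PC3, the PC3 signals of TIMP1 stayed between 16408.9 and 22634.7, and MMP13 stayed under the floor in every line.

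PLAU was the activator with the clearest change in PC3. Its signals in PC3 were 11738.8 and 11923.6 in vehicle, 5201.4 and 5128.6 at 0.5 µM, and 2972.0 and 3064.1 at 10 µM. The arrays of the 3 conditions did not overlap, and replicates lay close to each other. Against vehicle, PLAU was 2.29-fold lower at 0.5 µM (log2 change -1.20, SE 0.26, limma adjusted p = 0.0229) and 3.92-fold lower at 10 µM (-1.97, SE 0.26, adjusted p = 0.000267). The first call was lost without PC3 vehicle replicate 2 (adjusted p = 0.106) and when PC3 was fitted alone (0.211). The second was kept in both, with an adjusted p of 0.0709 in PC3 alone. The PECAM1 signal given above was also lower on treated PC3 arrays, and its part in the PLAU result was not tested.

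The other PLAU probe set moved alike. It gave 9914.1 and 9890.4 in vehicle, 5182.3 and 4323.3 at 0.5 µM, and 2868.9 and 2746.7 at 10 µM. It was called at 10 µM (log2 change -1.82, SE 0.58, adjusted p = 0.0662), and at 0.5 µM it gave -1.06 (SE 0.58, adjusted p = 0.428). Its standard error comes from all 12 groups, including lines where it read near background.

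The difference between the concentrations was smaller than each difference from vehicle. PLAU gave a log2 difference of -0.78 (SE 0.26) between 10 and 0.5 µM, which did not pass (adjusted p = 0.221), although both arrays at 10 µM lay under both at 0.5 µM. With 32 added to each signal before the log, the same difference passed (-0.77, adjusted p = 0.0502).

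PLAU was detected in 1 other line. NCI-H660 had 213.7 and 172.2 in vehicle, 163.8 and 131.2 at 0.5 µM, and 202.8 and 173.0 at 10 µM. Its changes were -0.39 and -0.03 on the log2 scale, neither of which passed (adjusted p = 0.613 and 0.962). The PLAU change in PC3 differed from that in NCI-H660 at 10 µM by -1.94 (SE 0.36, adjusted p = 0.0105), and at 0.5 µM by -0.81, which did not pass (adjusted p = 0.458). On the arrays labelled LNCaP or VCaP PLAU read from 33.8 to 85.4, under the floor, so no change was measured there. In vehicle the order of levels was PC3, then NCI-H660 (61.7-fold lower than PC3), then the other 2 lines, which had no order under the floor.

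PLAT, the tissue-type activator, also had its highest signals in PC3. They were 2377.2 and 2558.0 in vehicle, 1678.6 and 1737.1 at 0.5 µM, and 1275.6 and 1461.9 at 10 µM. The conditions did not overlap, yet neither difference passed, with log2 changes of -0.53 (adjusted p = 0.894) and -0.85 (adjusted p = 0.726) and an SE of 1.03. Fitted in PC3 alone the SE was 0.17, and the changes still did not pass (adjusted p = 0.429 and 0.146).

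PLAT was above the floor in 1 other condition, vehicle on the arrays labelled LNCaP, with 185.1 and 162.2. There it gave 86.3 and 53.9 at 0.5 µM and 63.5 and 62.5 at 10 µM, both under the floor, so at least 1.74-fold lower. These differences did not pass in the fit over all groups (adjusted p = 0.495 and 0.383), but passed with 32 added to each signal (0.0649 and 0.0287). They also passed with that label fitted alone (0.0996 and 0.0416). On VCaP-labelled and NCI-H660 arrays PLAT read from 3.6 to 50.7, with no order. In vehicle PC3 was 14.2-fold above the LNCaP-labelled arrays (adjusted p = 0.00982) and at least 24.7-fold above the others.

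PLAUR, the receptor, passed the test in PC3 at both concentrations with folds just under the minimum of 2. Its signals in PC3 were 3258.7 and 3233.6 in vehicle, 1646.6 and 1691.3 at 0.5 µM, and 1828.4 and 1799.0 at 10 µM. Every treated array lay under both vehicle arrays. The log2 changes were -0.96 at 0.5 µM (1.95-fold lower, SE 0.20, adjusted p = 0.0184) and -0.84 at 10 µM (1.79-fold lower, SE 0.20, adjusted p = 0.0138). Unlike PLAU, PLAUR was no lower at 10 µM than at 0.5 µM, the log2 difference being 0.12 (SE 0.20, adjusted p = 0.908). Fitted in PC3 alone neither change passed (adjusted p = 0.244 and 0.131), nor did the change at 0.5 µM in the mean over the 3 PLAUR probe sets (-0.88, adjusted p = 0.131).

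The other PLAUR probe sets were also lower on treated PC3 arrays, without passing. One gave 2276.4 and 2487.6 in vehicle, 1012.4 and 986.2 at 0.5 µM, and 855.7 and 780.9 at 10 µM, log2 changes of -1.25 and -1.54 (adjusted p = 0.457 and 0.228). Its 10 µM arrays lay under its 0.5 µM arrays, so the probe sets did not share the order of the concentrations. The third gave -0.41 and -0.69 (adjusted p = 0.905 and 0.742).

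**Figure D2:**
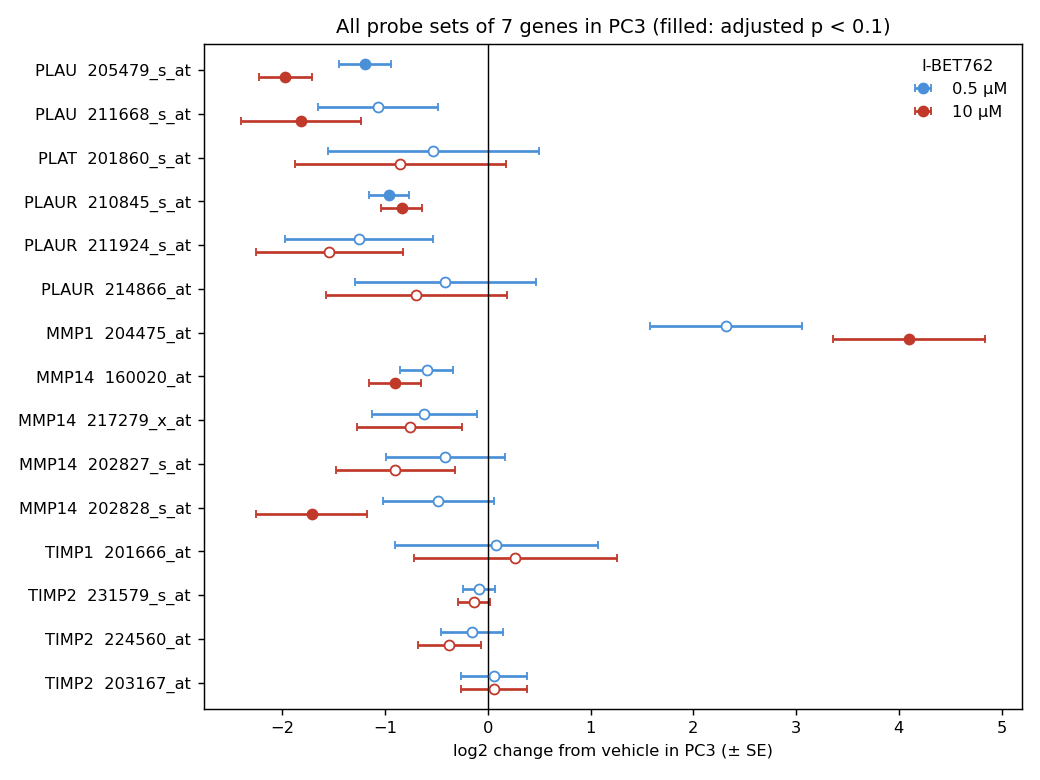
Fitted log2 change from vehicle (± SE, limma) in PC3 at 0.5 and 10 µM for the 15 probe sets of the 7 genes detected there; filled points have an adjusted p under 0.1. Both PLAU probe sets lay to the left at both doses, MMP1 lay far to the right, and the 3 TIMP2 probe sets lay near 0.

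PLAUR was the 1 gene of the activator system measured in all 4 lines. On the arrays labelled LNCaP it gave 264.9 and 284.5 in vehicle, 192.6 and 173.7 at 0.5 µM, and 158.1 and 182.5 at 10 µM. It passed as lower at both concentrations (log2 change -0.59, adjusted p = 0.0708, and -0.69, adjusted p = 0.0190). In the mean over the PLAUR probe sets the first change was -0.34 and did not pass (adjusted p = 0.540). The first was lost without any 1 of the vehicle or 0.5 µM arrays with that label (adjusted p from 0.145 to 0.270) and with that label fitted alone (0.143), and the second without vehicle replicate 2 (0.102) or 10 µM replicate 1 (0.129).

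On the arrays labelled VCaP it gave 126.6 and 183.1 in vehicle, 81.9 and 95.5 at 0.5 µM, and 123.9 and 107.0 at 10 µM. It was at least 1.55-fold lower at 0.5 µM (-0.78, adjusted p = 0.0251), a result lost without vehicle replicate 2 (0.228) or 0.5 µM replicate 1 (0.158) of that label or with that label alone (0.212), and at 10 µM it did not pass (-0.40, adjusted p = 0.213), except without vehicle replicate 1 of that label (0.0638) or in the mean over probe sets (-0.94, 0.0442). By the brightest probe set, NCI-H660 arrays lay the other way at 10 µM. They gave 521.6 and 350.8 in vehicle, 416.4 and 403.7 at 0.5 µM, and 671.6 and 566.8 at 10 µM, log2 changes of -0.06 and 0.53 that did not pass (adjusted p = 0.968 and 0.104). With each array centred on its median the second was 0.71 and passed (adjusted p = 0.0340). It also passed with quantile normalization (0.66, adjusted p = 0.0455), an intensity trend (0.0621) and 32 added (0.0577). Without NCI-H660 vehicle replicate 1 it was 0.81. The NCI-H660 difference between 10 and 0.5 µM passed only under alternatives. These were quantile normalization (0.71, adjusted p = 0.0985), an intensity trend (0.59, 0.0828) and 32 added (0.55, 0.0990). Another PLAUR probe set above the floor in NCI-H660 gave 170.2 and 313.7 in vehicle and 342.6 and 199.6 at 10 µM. Its treated and vehicle arrays overlapped, so it did not share the rise.

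By its brightest probe set, the PLAUR change in PC3 differed from that in NCI-H660 at 10 µM by -1.37 (SE 0.28, adjusted p = 0.0165). It did not pass as different from the change under either other label at either concentration (adjusted p from 0.465 to 0.868). In vehicle the order was PC3, NCI-H660, labelled LNCaP and labelled VCaP, and no neighbouring pair of groups overlapped. PC3 lay 7.59-fold above NCI-H660, 11.8-fold above the arrays labelled LNCaP and 21.3-fold above those labelled VCaP.

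The bases before the start sites are shown for PLAU and PLAUR, the ligand and receptor that fell together in PC3. They are RefSeq sequences of build GRCh38.p14, running 5′ to 3′ on the gene's strand and covering the 250 bases before each start. The gene PLAU lies at chr10:73908832-73917494 and PLAUR at chr19:43646095-43670169. Capitals mark matches to the AP-1 letters TGANTCA, the E-box CACGTG or the NF-kB letters GGGACTTTC on either strand.
PLAU, first listed start (chr10:73910360-73910609, plus strand): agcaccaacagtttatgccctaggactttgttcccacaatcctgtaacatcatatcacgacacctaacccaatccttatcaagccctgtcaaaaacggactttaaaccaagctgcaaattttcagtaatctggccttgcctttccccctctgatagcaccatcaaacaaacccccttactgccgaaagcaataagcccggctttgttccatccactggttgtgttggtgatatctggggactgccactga
PLAU, second listed start (chr10:73910882-73911131, plus strand): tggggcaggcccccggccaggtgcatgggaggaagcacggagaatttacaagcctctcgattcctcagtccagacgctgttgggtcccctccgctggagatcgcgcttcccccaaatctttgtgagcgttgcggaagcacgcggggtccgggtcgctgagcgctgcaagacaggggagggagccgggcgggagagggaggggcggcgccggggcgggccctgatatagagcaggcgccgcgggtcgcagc
PLAUR (chr19:43670170-43670419, minus strand): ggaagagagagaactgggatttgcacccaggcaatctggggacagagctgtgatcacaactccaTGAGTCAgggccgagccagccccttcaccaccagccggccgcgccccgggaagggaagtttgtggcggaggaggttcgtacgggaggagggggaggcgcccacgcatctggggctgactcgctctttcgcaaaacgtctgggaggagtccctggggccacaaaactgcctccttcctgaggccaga

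The PLAUR window held 1 match, TGAGTCA, which began 186 bases before the start. Neither PLAU window held any of the 3 motifs, nor did those of MMP14 and TIMP1, the other 2 of the 8 genes whose windows were searched. Both PLAU windows lie inside the span given for the gene, so bases before its outermost position were not searched. Of 35116 windows of this length, 6.57% held the AP-1 letters, 6.34% the E-box and 0.325% the NF-kB letters. In the same build MMP1 lies at chr11:102789919-102798160, MMP13 at chr11:102942995-102955732, MMP14 at chr14:22836585-22847758, TIMP1 at chrX:47582436-47586789 and TIMP2 at chr17:78852977-78925387. A match is a description of letters only.

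MMP1, the interstitial collagenase, was the 1 member that rose. Its signals in PC3 were 355.4 and 299.8 in vehicle, 1493.3 and 1766.9 at 0.5 µM, and 5202.4 and 6024.7 at 10 µM. The conditions did not overlap, and MMP1 moved in the direction opposite to PLAU and PLAUR. It was called 17.1-fold higher at 10 µM (log2 change 4.10, SE 0.74, adjusted p = 0.00278).

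At 0.5 µM MMP1 was 4.98-fold higher but not called (2.32, SE 0.74, adjusted p = 0.123). That test depended on arrays of other lines, where MMP1 read from 1.8 to 46.1. It passed without either vehicle array labelled VCaP, which read 26.3 and 2.5 (adjusted p = 0.00569 each), and with all arrays of both doubted labels left out (0.0684). With 32 added to each signal it passed too (log2 change 2.21, SE 0.21, adjusted p = 2.45e-05), while in PC3 alone it did not (0.186). Between 10 and 0.5 µM the log2 difference was 1.79 (SE 0.74, adjusted p = 0.362), and it passed with 32 added (1.77, SE 0.21, adjusted p = 0.00190).

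MMP1 was under the floor in all 9 conditions of the other lines, so its change in PC3 could not be set against theirs. In vehicle PC3 was at least 3.28-fold higher than each of them, with no order among the 3. MMP13, collagenase 3, was under the floor everywhere. It read 80.8 and 15.4 in vehicle, 5.6 and 5.9 at 0.5 µM, and 22.9 and 69.3 at 10 µM in PC3, and from 2.6 to 18.7 in the other lines.

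MMP14, a membrane-anchored metalloprotease known to activate pro-MMP2, gave 611.8 and 652.4 in vehicle, 446.1 and 392.2 at 0.5 µM, and 410.8 and 277.2 at 10 µM in PC3. The treated arrays lay under the vehicle arrays, and the 2 concentrations overlapped. The change at 10 µM passed at a fold under the minimum (log2 -0.90, 1.87-fold lower, SE 0.26, adjusted p = 0.0365) and that at 0.5 µM did not (-0.59, adjusted p = 0.277). The first was lost without either PC3 vehicle array (0.114 and 0.160), without 10 µM replicate 2 (0.256) and in PC3 alone (0.221).

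The 4 MMP14 probe sets gave negative log2 changes in PC3 at both concentrations. One of the 3 others was called at 10 µM (126.5 and 24.4 treated, against 219.3 and 150.8 in vehicle, at least 1.85-fold lower with a fitted fold of 3.28, adjusted p = 0.0610), and the remaining 2 gave -0.76 and -0.90 (adjusted p = 0.446 and 0.425). They differed on levels outside PC3. The probe set used here read from 153.2 to 449.4 in the other lines, while 2 others never exceeded 81.0 there and the last ran from 15.5 to 147.1.

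By the first probe set the MMP14 change at 10 µM differed between PC3 and the arrays labelled LNCaP by -1.51 (SE 0.36, adjusted p = 0.0171) and those labelled VCaP by -1.38 (SE 0.36, adjusted p = 0.0403). The arrays labelled LNCaP had 226.1 and 164.5 in vehicle, 164.4 and 191.3 at 0.5 µM, and 265.9 and 323.3 at 10 µM. Those labelled VCaP had 286.7 and 248.3, 271.8 and 329.5, and 304.9 and 449.4 in the same order of conditions. Neither label's own change passed (10 µM log2 0.60 and 0.47, adjusted p = 0.114 and 0.272). The first passed with an intensity trend (0.0795), with 32 added (0.0971), without LNCaP-labelled vehicle replicate 1 (0.83, adjusted p = 0.0809) and without any 1 of 6 arrays of other groups (0.0914 to 0.0972).

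The second of these differences was lost without any of 4 single arrays (adjusted p from 0.109 to 0.156), vehicle replicate 2 and 10 µM replicate 2 of the VCaP label and of PC3. No other probe set could test either difference, being under the floor under those labels. NCI-H660 had 179.5 and 153.2 in vehicle, 312.3 and 207.1 at 0.5 µM, and 186.2 and 203.4 at 10 µM, where the difference from PC3 did not pass (-1.14, adjusted p = 0.116). It passed with quantile normalization (0.0683), median centring (0.0613), an intensity trend (0.0579), 32 added (0.0664) and the mean over probe sets (-1.51, 0.0302), and without PC3 10 µM replicate 1 (0.0702). By the first probe set, PC3 in vehicle was 2.37-fold above the arrays labelled VCaP, 3.28-fold above those labelled LNCaP and 3.81-fold above NCI-H660, and the last pair overlapped. Each other probe set had means under the floor outside PC3 in vehicle, so gave no such order. One averaged 405.3 in PC3, against 16.5 (labelled LNCaP), 11.1 (labelled VCaP) and 19.8 (NCI-H660).

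TIMP1, a secreted inhibitor of many metalloproteases, was bright in PC3, and neither of its changes there passed. It gave 18173.9 and 17172.3 in vehicle, 21333.0 and 16408.9 at 0.5 µM, and 22634.7 and 20004.3 at 10 µM. Treated and vehicle arrays overlapped at 0.5 µM, and at 10 µM both lay above vehicle. The log2 changes were 0.08 and 0.27 (SE 0.99, adjusted p = 0.987 and 0.929), and in PC3 alone the SE was 0.21 (adjusted p = 0.926 and 0.604). No mean in another line reached the floor, and the single highest array there read 118.9. In vehicle PC3 was at least 177-fold higher than each of the other lines, with no order among these.

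TIMP2, a metalloprotease inhibitor that also takes part in the activation of pro-MMP2 by MMP14, was lower with I-BET762 in the 3 lines other than PC3, at both concentrations. Its PC3 signals were 5110.6 and 6129.6 in vehicle, 5020.2 and 5563.0 at 0.5 µM, and 5237.5 and 4949.2 at 10 µM. The log2 changes were -0.08 and -0.14 (SE 0.16, adjusted p = 0.890 and 0.708). On the arrays labelled LNCaP it gave 582.5 and 518.9 in vehicle, 200.3 and 240.1 at 0.5 µM, and 303.1 and 310.7 at 10 µM. Every treated array lay under both vehicle arrays there, 2.51-fold lower at 0.5 µM (-1.33, SE 0.16, adjusted p = 9.95e-05, called) and 1.79-fold lower at 10 µM (-0.84, adjusted p = 0.00116).

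The arrays labelled VCaP gave 813.2 and 1000.8 in vehicle, 557.4 and 540.4 at 0.5 µM, and 323.8 and 374.1 at 10 µM. TIMP2 passed at 0.5 µM (-0.72, adjusted p = 0.0116), lost without vehicle replicate 2 of that label (0.114), and was called at 10 µM (2.59-fold lower, -1.37, adjusted p = 3.69e-05). NCI-H660 had 957.6 and 1196.1 in vehicle, 654.9 and 581.6 at 0.5 µM, and 561.5 and 528.2 at 10 µM. Both concentrations passed there at folds of 1.73 and 1.97 (-0.79, adjusted p = 0.0189, and -0.97, adjusted p = 0.000993). The first was lost without NCI-H660 vehicle replicate 2 (0.148) or 0.5 µM replicate 2 (0.156), and with the doubted labels left out (0.125). With each line fitted alone, the 0.5 µM changes under the VCaP label and in NCI-H660 did not pass (0.152 and 0.224). The COL1A2 signal given above was also lower on treated NCI-H660 arrays, and its part in the TIMP2 result was not tested.

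The concentrations did not rank alike. Under the VCaP label TIMP2 was lower at 10 than at 0.5 µM (log2 difference -0.66, adjusted p = 0.0407), and under the LNCaP label it was higher (0.48, adjusted p = 0.0924). The second difference was lost when any 1 array of its own groups was left out (adjusted p from 0.109 to 0.435), and was -0.03 in the mean over the 3 TIMP2 probe sets, so its direction was not stable. The first was lost without either 0.5 µM array (0.176 and 0.139) or 10 µM replicate 1 (0.253) of that label.

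The other 2 TIMP2 probe sets also gave lower values in the 3 lines. One was at least 1.86-fold lower under the LNCaP label at 0.5 µM (adjusted p = 0.0140), 2.69-fold lower under the VCaP label at 10 µM (0.00474) and 3.08-fold lower in NCI-H660 at 10 µM (0.00304). In PC3 they gave log2 changes between -0.37 and 0.06, none of which passed (adjusted p from 0.556 to 0.971). In vehicle TIMP2 was 5.23-fold higher in PC3 than in NCI-H660, 6.20-fold higher than under the VCaP label and 10.2-fold higher than under the LNCaP label. NCI-H660 and VCaP-labelled arrays overlapped in that order.

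The TIMP2 change itself differed between PC3 and other lines. At 0.5 µM it differed from that under the LNCaP label by 1.24 on the log2 scale (SE 0.22, adjusted p = 0.00965). At 10 µM it differed by 1.24 from the VCaP label (adjusted p = 0.00472), by 0.70 from the LNCaP label (0.0628) and by 0.84 from NCI-H660 (0.0573). The smaller differences, 0.70 and 0.84, were lost in the majority of fits that left out an array of their own groups, and that from NCI-H660 was also lost with the doubted labels left out (0.168) and with median centring (0.223). At 0.5 µM the difference from the VCaP label (0.63, adjusted p = 0.198) and from NCI-H660 (0.71, adjusted p = 0.231) did not pass, though both did with an intensity trend (0.0773 and 0.0789). These comparisons share the PC3 arrays.

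**Figure D3:**
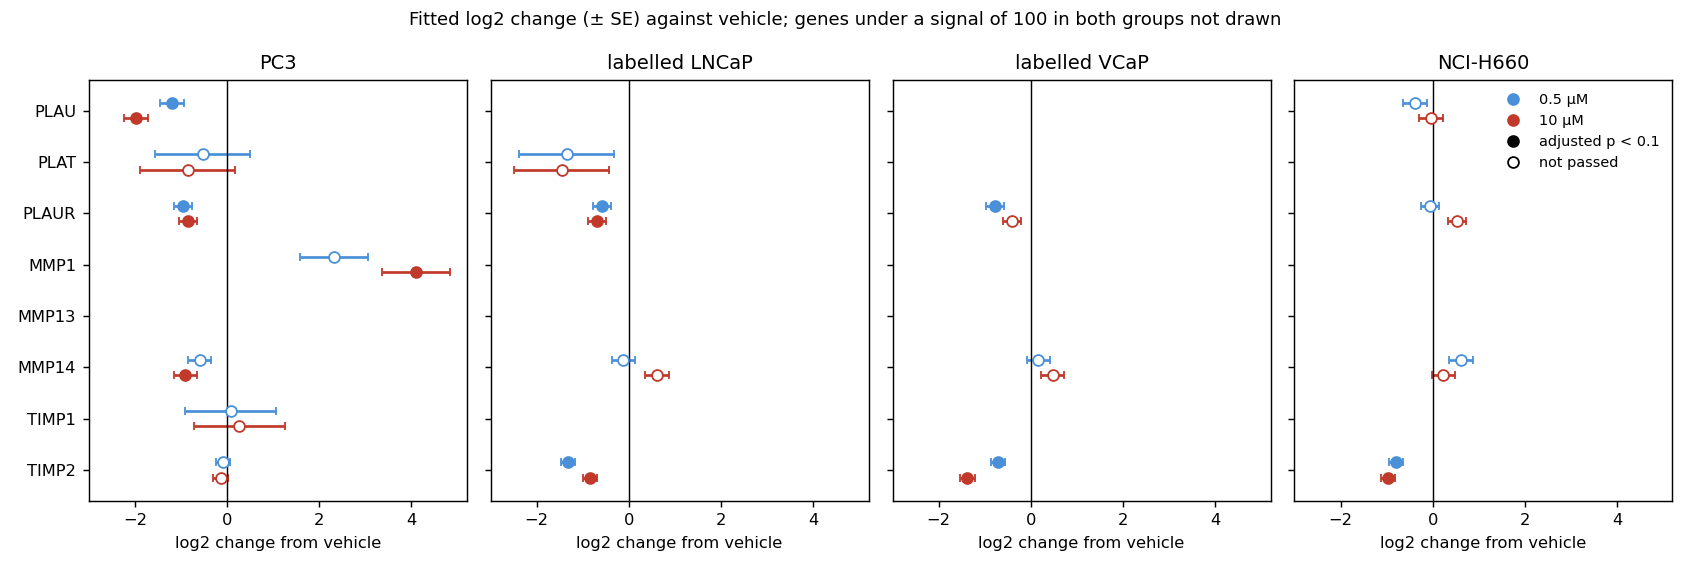
Fitted log2 change from vehicle (± SE, limma) in each line at 0.5 and 10 µM; filled points have an adjusted p under 0.1, and pairs of groups both under the floor are not drawn. PLAU lay to the left of 0 and MMP1 to the right in PC3, and TIMP2 lay to the left in the other 3 lines, with PC3 near 0.

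Read over the 8 genes, the calls were few. In PC3, 1 was called at 0.5 µM (PLAU, lower) and 2 at 10 µM (PLAU lower, MMP1 higher), where 1.25% and 4.29% of all genes were called. Passing without the fold minimum took in 2 at 0.5 µM and 4 at 10 µM, against 6.77% and 18.5% of all genes. Under the LNCaP label 1 was called at 0.5 µM (TIMP2) and 0 at 10 µM, where the shares of all genes were 5.01% and 13.1%. PLAUR and TIMP2 passed there at both concentrations, as did 20.3% and 32.4% of all genes.

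Under the VCaP label 0 were called at 0.5 µM and 1 at 10 µM (TIMP2), where 3.25% and 7.95% of all genes were called. PLAUR and TIMP2 passed at 0.5 µM and TIMP2 at 10 µM, as did 14.6% and 24.9% of all genes. In NCI-H660 0 were called, at shares of 0.92% and 5.67%. TIMP2 passed there at both concentrations, as did 4.71% and 20.9%. With 8 genes, counts of 0 to 4 describe the genes named and are no result about the group.

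Between 10 and 0.5 µM limma called 0 of the 8 in any line, where 0.162% of all genes were called in PC3, 2.03% under the LNCaP label, 1.06% under the VCaP label and 0.668% in NCI-H660. TIMP2 passed without the fold minimum under both doubted labels. With 32 added, MMP1 was called in PC3. The change in PC3 was tested against that of another line only where the gene was detected in both. At 0.5 µM it differed for 1 gene, TIMP2, from the LNCaP label (5.26% of all genes differed), and for 0 genes from the VCaP label (4.33%) and NCI-H660 (0.951%). At 10 µM it differed for 2 genes from the LNCaP label (15.9%) and for 2 from the VCaP label (10.2%), MMP14 and TIMP2 in both. From NCI-H660 it differed for 3, PLAU, PLAUR and TIMP2 (7.02%). These shares count genes not detected in both lines as not differing. Of the genes detected in both, 9.65%, 8.06% and 1.74% differed at 0.5 µM from the LNCaP label, the VCaP label and NCI-H660. At 10 µM these shares were 29%, 18.7% and 12.8%.

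Further genes of the plasminogen system gave 1 call up and 1 down in PC3 at 0.5 µM, and 1 up and 2 down at 10 µM, of 13 measured among 16 listed. Over all genes the shares called in PC3 were 1.25% and 4.29%. At 0.5 µM the list gave 2 up under the LNCaP label, 1 down under the VCaP label and 0 in NCI-H660. At 10 µM it gave 2 up and 2 down, 2 up and 1 down, and 2 up and 1 down in that order. Shares of all genes there were 5.01%, 3.25% and 0.92%, then 13.1%, 7.95% and 5.67%. Calls in this list were thus not particular to PC3. The signals below are from PC3. SERPINI1, or neuroserpin, an inhibitor of tissue plasminogen activator, read 61.9 and 59.3 in vehicle, 134.9 and 122.2 at 0.5 µM, and 449.6 and 542.3 at 10 µM. It was at least 1.29-fold higher at 0.5 µM, called on a fitted fold of 2.12 (adjusted p = 0.00275), and at least 4.96-fold higher at 10 µM (adjusted p = 1.67e-07). F3, tissue factor, which starts coagulation, read 1620.6 and 1241.1 in vehicle, 181.4 and 542.9 at 0.5 µM, and 454.6 and 361.4 at 10 µM. It was 4.52-fold (adjusted p = 0.0564) and 3.50-fold lower (adjusted p = 0.0593).

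TFPI, the inhibitor of the tissue factor pathway, read 484.2 and 691.4 in vehicle, 217.6 and 290.1 at 0.5 µM, and 51.9 and 82.1 at 10 µM. It was at least 5.88-fold lower at 10 µM (adjusted p = 0.0185), and at 0.5 µM did not pass (2.30-fold lower, adjusted p = 0.527). F3 and TFPI belong to coagulation and do not themselves cleave plasminogen. The median log2 change of the list was -0.11 and 0.26, against 0.01 and -0.01 over all genes.

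Of the other 15 matrix metalloproteases, 0 were called in PC3 at either concentration, with median log2 changes of -0.20 and 0.02. At 0.5 and 10 µM 10 and 9 of them were above the floor in the treated or vehicle group. Among 8 metalloprotease inhibitors and activators, 0 were called at 0.5 µM and 2 were lower at 10 µM (medians -0.13 and -0.49). The shares of all genes called in PC3 were 1.25% and 4.29%. CLDN1, a tight junction protein, read 1533.2 and 1452.1 in vehicle, 895.6 and 943.4 at 0.5 µM, and 662.6 and 729.1 at 10 µM, where it was 2.15-fold lower (adjusted p = 0.00627). PCOLCE, which enhances procollagen cleavage, was at least 1.89-fold lower at 10 µM, called on a fitted fold of 3.43 (adjusted p = 0.0933). Under the LNCaP label this list of inhibitors and activators gave 1 lower at each concentration. It gave 0 under the VCaP label, and 1 higher in NCI-H660 at 10 µM.

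Among 22 other proteases of the cell surface or lysosome, 0 were higher and 2 lower in PC3 at 0.5 µM, and 1 higher and 3 lower at 10 µM (medians -0.19 and -0.28). Of all genes 1.25% and 4.29% were called there. KLK6, a kallikrein, read 5506.5 and 5852 in vehicle, 897.7 and 992.2 at 0.5 µM, and 771.1 and 825.2 at 10 µM. It was 6.01-fold (adjusted p = 0.0391) and 7.12-fold lower (adjusted p = 0.00951). ADAM19, a metalloprotease-disintegrin, was 2.17-fold and 2.77-fold lower (adjusted p = 0.0523 and 0.00434).

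ADAM12, of the same family, was at least 1.90-fold lower at 10 µM, called on a fitted fold of 3.19 (adjusted p = 0.0487). LGMN, the lysosomal protease legumain, read 824.2 and 898.8 in vehicle, 1578.5 and 1547.1 at 0.5 µM, and 1743.9 and 2371.5 at 10 µM, where it was 2.36-fold higher (adjusted p = 0.000439). Of 20 measured matrix substrates and integrins among 23 listed, 0 were called at 0.5 µM and 1 at 10 µM (medians -0.10 and -0.08). This was ITGA3, a laminin-binding integrin subunit, 2.07-fold higher (adjusted p = 0.0561). Of all genes 1.25% and 4.29% were called in PC3. Under the LNCaP label 4 of this list were lower at each concentration, and 1 was higher at 10 µM. Under the VCaP label 1 was lower at each, and in NCI-H660 1 was lower at 10 µM. The 22 proteases gave 1 and 2 lower under the LNCaP label and 1 and 1 lower under the VCaP label. In NCI-H660 they gave 0 at 0.5 µM, and 1 higher and 1 lower at 10 µM. These lists hold genes picked from general knowledge of the system with earlier results of the same arrays known.

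**Figure D4:**
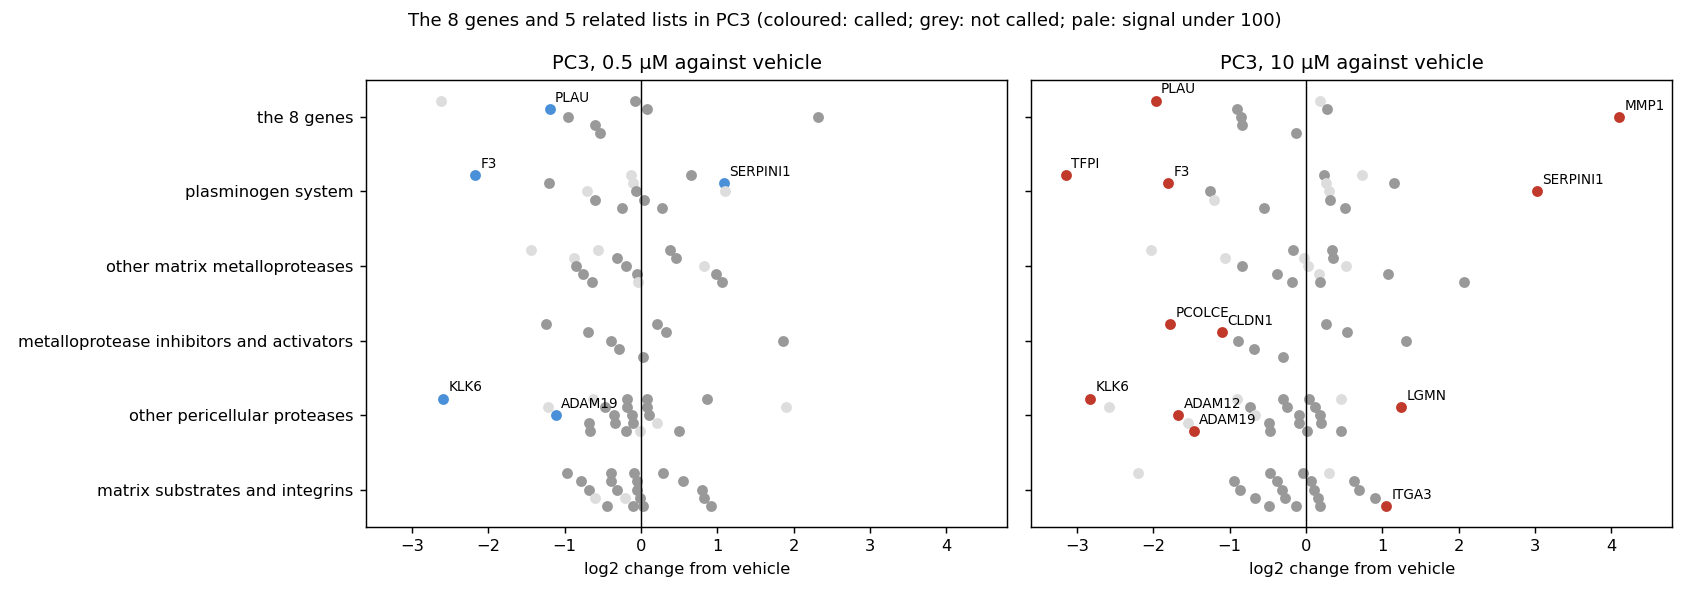
Fitted log2 change from vehicle in PC3 of the 8 genes and of the 5 lists of related genes, at 0.5 µM (left) and 10 µM (right); each point is a gene, coloured and named where called, grey where not and pale where both means lay under the floor. Most points lay within 1 of 0, and the named genes stood on both sides.

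Over the 24 arrays, the signals most like PLAU among 14407 genes were those of IGFBP4 (Pearson r = 0.979), S100A14 (0.977), APOBEC3C (0.974), BMAL2 (0.971) and RPL39L (0.971). Those most like TIMP1 were MYEOV (0.986), S100A9 (0.979), KLK5 (0.975), MIR31HG (0.974) and AXL (0.973). The arrays come from 4 lines and are not independent points, so the coefficients are a description only.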

How the data were processed

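RNA of 4 cell lines was measured on 24 arrays. The authors deposited MAS5 signals, a linear intensity brought to a target of 500 per array; the trimmed mean was checked and was 500.0. Control probe sets (62) were left out. The platform annotation gave 41091 probe sets 1 symbol, 1801 several and 11721 none, and none was named from several. A gene was represented by its brightest probe set by mean log2 value, avoiding those ending in _x_at where another existed.

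Log2 signals were fitted with limma 3.58.1 in R 4.3.3 as 12 groups, with empirical Bayes moderation without a trend (12 residual and 1.29 prior degrees of freedom), with Benjamini-Hochberg adjustment across the 54613 probe sets of each contrast. The fold minimum of 2 applied to the fitted fold, not to the lower bound. Differences between lines in their change needed no fold minimum, and a mean of 100 in both lines. The fit was tested on simulated data. The number of arrays, 2 per group, limits the precision. With so few, arrays that do not overlap between groups are a description and no test.

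All 8 genes, the 5 lists of related genes and their tests were chosen with earlier results of these data known. Named were all 8 genes, up to 4 genes with the largest change per list among those called in PC3, and the 5 genes most like PLAU and TIMP1. Deviations of same-numbered replicates correlated between -0.043 and 0.061. No strong pairing by number was seen, though noise of single probe sets could hide a weak one, and the main fit used no pairing. Alternatives were no floor, a floor of 200, median centring, quantile normalization, each line alone, an intensity trend, 32 added to the signal, other p and fold minimums, a mean over probe sets, a replicate block and leaving out each array. Leaving out both doubted labels was chosen after seeing the data. Promoter windows and positions come from RefSeq, build GRCh38.p14, and the windows of 4 of the 8 genes were searched. Present calls and some genes were not analysed here.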

Additional observations from a re-analysis of the deposited data

Results flagged for a closer look

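Changes that differed between PC3 and another line by a test of the difference itself are given here as log2 differences, PC3 change minus the other line's change. For TIMP2 they were 1.24 at 0.5 µM (labelled LNCaP, adjusted p = 0.00965), and at 10 µM 0.70 (labelled LNCaP, 0.0628), 1.24 (labelled VCaP, 0.00472) and 0.84 (NCI-H660, 0.0573). For MMP14 at 10 µM they were -1.51 (labelled LNCaP, 0.0171) and -1.38 (labelled VCaP, 0.0403), by 1 of its 4 probe sets. For PLAU and PLAUR at 10 µM they were -1.94 (0.0105) and -1.37 (0.0165), both against NCI-H660 and each by its brightest probe set. No group held enough arrays for a test of outlying samples.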

How the results depend on the processing

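Of the 8 genes, the number called in PC3 at 0.5 µM was 1. It was 2 with an intensity trend, with no fold minimum, with 32 added, with the mean over probe sets and with both doubted labels left out, 0 with each line fitted alone, and 0 to 2 leaving out 1 array. It was 0 without PC3 vehicle replicate 2 and 2 without either vehicle array labelled VCaP. At 10 µM the number was 2, and 4 with no fold minimum and with the mean over probe sets.
Under the LNCaP label it was 1 at 0.5 µM, and 2 with each line alone, no fold minimum or 32 added. At 10 µM it was 0, and 1 with each line alone, 32 added or the mean over probe sets, and 2 with no fold minimum. Under the VCaP label at 0.5 µM it was 0, 2 with no fold minimum, and 0 to 1 leaving out 1 array, being 1 without vehicle replicate 1.
In NCI-H660 at 0.5 µM it was 0, and 1 with no floor or no fold minimum. At 10 µM it was 0, and 1 with no fold minimum or the mean over probe sets, and 0 to 1 leaving out 1 array, being 1 without vehicle replicate 1 or 10 µM replicate 1.
Between the concentrations it was 0 in every line. It became 1 in PC3 with 32 added, and 0 to 1 leaving out 1 array (1 without either vehicle array labelled VCaP), 1 in NCI-H660 with no floor, and 1 under each of the doubted labels with no fold minimum. The number whose change differed at 0.5 µM between PC3 and another line was 1, and became 4 with no floor and 2 with a trend or 32 added.
TIMP2 under the LNCaP label turned between 10 and 0.5 µM, to -0.03 in the mean over probe sets against 0.48. Median centring moved all changes by -0.183 and -0.129 (labelled LNCaP, 0.5 and 10 µM), -0.133 (labelled VCaP, 10 µM) and 0.179 (NCI-H660, 10 µM). With a replicate block, 1 and 2 of the genes were called in PC3 at 0.5 and 10 µM, and no call among the 8 changed. The causes of these shifts were not tested. Signals under 100 limit what can be said of MMP1, MMP13, PLAU, PLAT and TIMP1 outside PC3.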
